A study of Mus musculus with 6 samples.

Results

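Mitochondrial fatty acid oxidation is followed here through 10 genes, chosen by name from the 25140 genes of the count table: the carnitine palmitoyltransferases *Cpt1a*, *Cpt1c* and *Cpt2*, the acyl-CoA dehydrogenases *Acadm*, *Acadl* and *Acadvl*, the trifunctional protein subunits *Hadha* and *Hadhb*, the nuclear receptor *Ppara* and the coactivator *Ppargc1a*. All 10 were found, and all 10 passed the filter on low counts. RNA was sequenced from primary cardiac fibroblasts of adult C57BL/6 mice at passage 1, in 3 libraries of cells given vehicle and 3 libraries of cells given 10 ng/ml TGFβ for 24 h. TGFβ is a cytokine that drives fibroblasts to become contractile, matrix-producing myofibroblasts. Both groups were grown in DMEM with 25 mM glucose and kept in 1% FBS before treatment, for 16 h by the sample labels and for 24 h by the methods. By the methods, serum stayed at 1% during treatment too. The comparison asks which genes change in level when TGFβ is added. The study's results section speaks of MEFs where its methods and labels give cardiac fibroblasts, and the labels do not say how many animals the cells came from.

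Long-chain fatty acids cannot cross the inner mitochondrial membrane as CoA esters. CPT1 on the outer membrane turns them into acylcarnitines, a carrier takes these across, and CPT2 on the inner membrane restores the CoA ester. Each turn of β-oxidation then begins with an acyl-CoA dehydrogenase suited to the chain length and, for long chains, ends on the trifunctional protein, while PPARα and PGC-1α raise transcription of these genes in heart, liver and other tissues that burn fat.

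Between 27851677 and 31072338 reads were counted per library. Where 3 values follow each other below, the order is the vehicle libraries of 31072338, 29296570 and 29331999 counts and the TGFβ libraries of 27851677, 28894151 and 28641986 counts. Levels are in CPM, counts relative to a library size scaled by TMM factors. The test is the quasi-likelihood test of edgeR, adjusted p-values are by Benjamini and Hochberg over the 14334 genes tested, and the threshold is 0.05. Of 6 genes known to respond to TGFβ, 5 rose, among them *Acta2*, which encodes α-smooth muscle actin (log2 fold change 1.03), and *Postn*, which encodes periostin (1.55), whereas *Smad7* did not pass the test (0.02, adjusted p = 0.881). The fibroblast genes *Col1a1*, *Dcn* and *Pdgfra* were abundant in both groups, at means of 19992, 1648 and 665 CPM with vehicle and 23484, 1148 and 257 CPM with TGFβ. Of 8 fibroblast markers 6 fell, *Dcn* and *Pdgfra* among them, with a median of -0.73 on the log2 scale, while *Col1a1* did not pass the test (0.23, adjusted p = 0.055). Markers of other cells were present too. The summed level of 6 endothelial markers was 419 to 645 CPM with vehicle and 383 to 524 CPM with TGFβ, that of 5 leukocyte markers 238 to 340 CPM and 207 to 308 CPM, and that of 5 mesothelial markers 24.1 to 85.1 CPM and 15.2 to 41.3 CPM. The 6 markers of smooth muscle cells and pericytes summed to 250 to 284 CPM and 135 to 165 CPM, groups that did not overlap. The lower sum came from *Notch3*, which fell from a mean of 207 to 57.3 CPM (-1.85), the only 1 of the 6 to fall past the threshold. *Cspg4* rose from 19.5 to 53.3 CPM (1.45), and the other 4 markers did not pass the test. The part of these cells in the changes described was not tested. The 8 cardiomyocyte markers summed to 38.7 to 59.7 CPM and 27.4 to 40.6 CPM, nearly all of it *Tnnt2*, while *Myh6*, which defines cardiomyocytes, stood at 0.254 CPM with vehicle.

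Of the 10 fatty acid oxidation genes, 6 changed with TGFβ, 2 upward and 4 downward. Across all tested genes 40.7% changed, 20.5% upward and 20.1% downward, and with 10 genes nothing particular to them is read from the count of 6. The vehicle and TGFβ libraries did not overlap for 6 of the 10 genes, against 53.3% of all tested genes. Both counts of 6 include *Ppargc1a*, which passed the filter on low counts through the vehicle group alone and so had to differ. *Acadvl* (0.49 on the log2 scale) and *Hadhb* (0.20) rose, and *Cpt1a* (-0.39), *Acadl* (-0.17), *Ppara* (-1.21) and *Ppargc1a* (-2.92) fell. The remaining 4, *Cpt1c*, *Cpt2*, *Acadm* and *Hadha*, did not pass the test. The median log2 fold change was -0.00057 over the 10 genes and -0.0013 over all tested genes, and the summed level of the 8 enzyme genes was 653 ± 29.2 CPM in vehicle libraries and 672 ± 39.9 CPM in TGFβ libraries (SD, n = 3 each). The enzyme genes moved in both directions by at most 0.49, while the largest falls were those of the 2 regulator genes, both of low level. In bulk RNA, fewer cells of a type and less RNA per cell cannot be told apart.

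**Figure D1:**
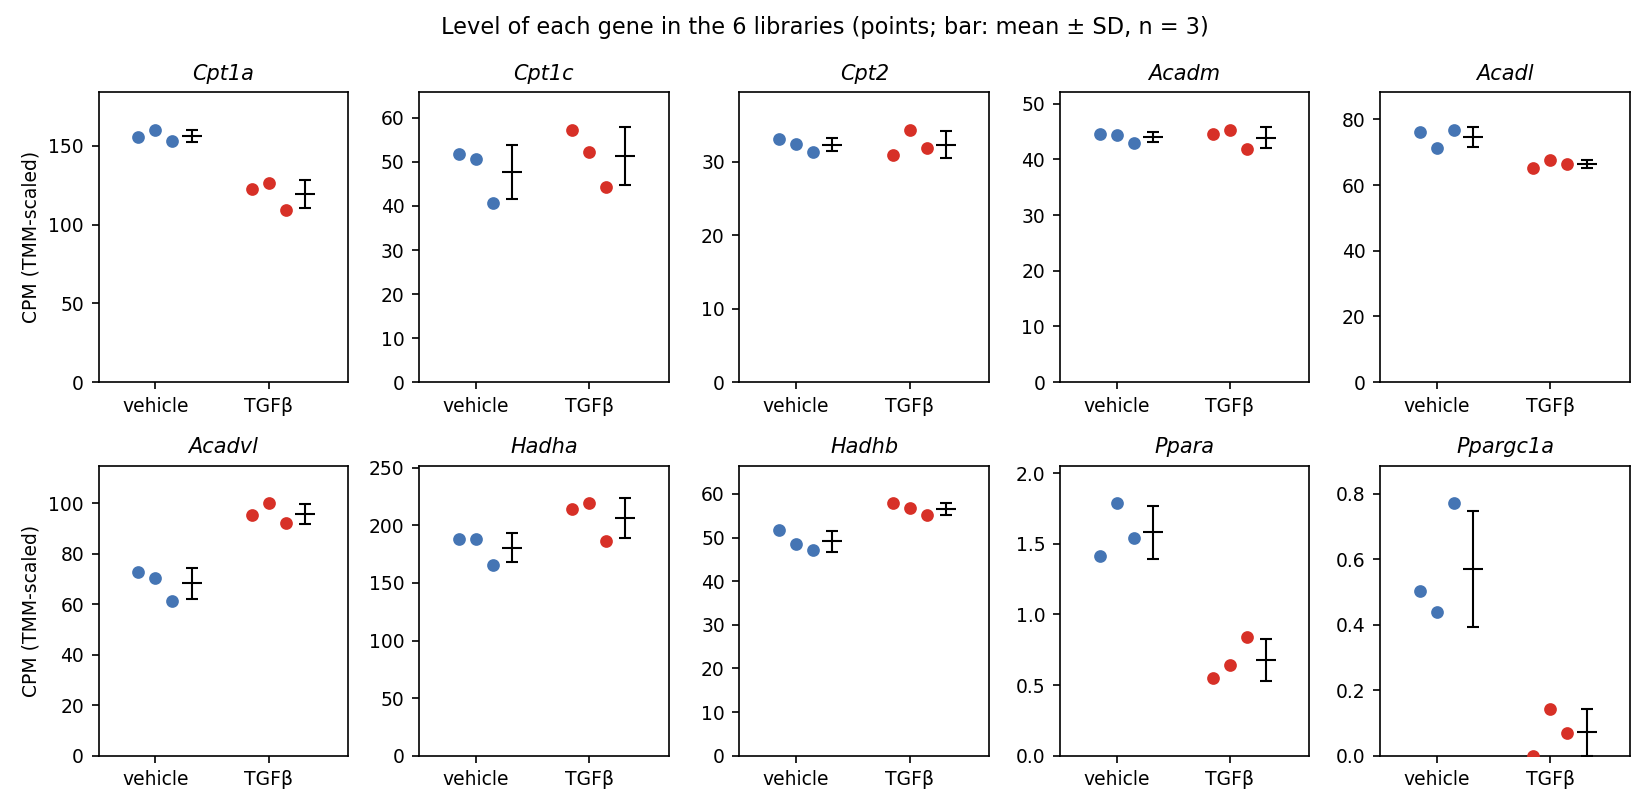
Level in CPM (vertical axes, from 0) of the 10 genes in the 3 vehicle (blue) and 3 TGFβ libraries (red), with the mean and SD of each group as black bars. The groups stand apart for *Cpt1a*, *Acadl*, *Acadvl*, *Hadhb*, *Ppara* and *Ppargc1a* and overlap for the other 4.

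**Figure D2:**
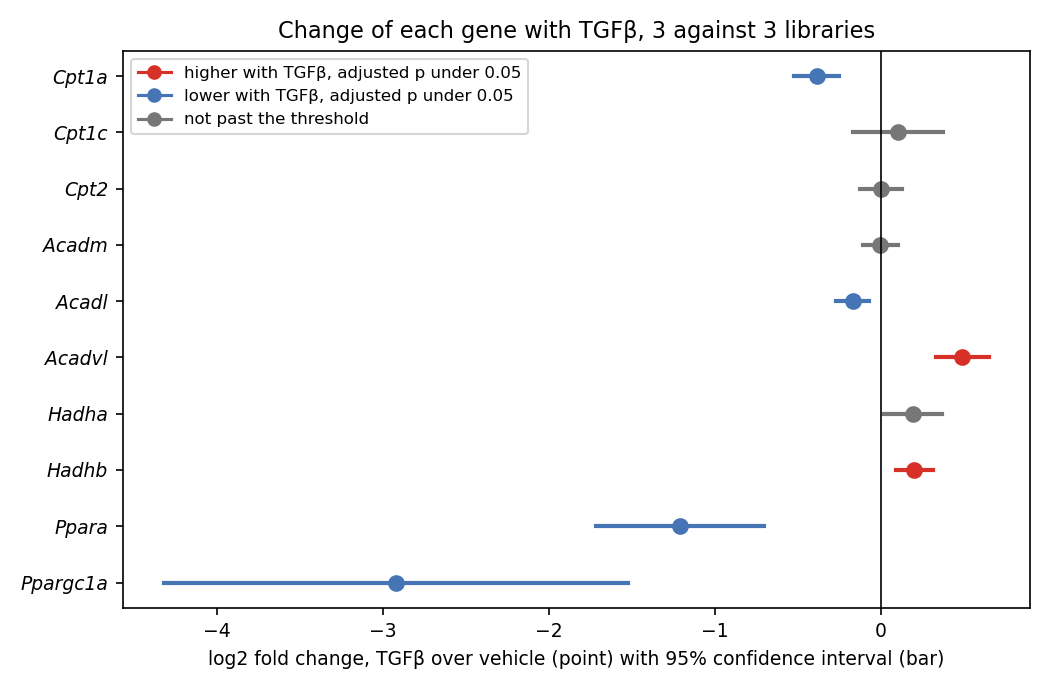
Log2 fold change of TGFβ over vehicle (horizontal axis) for the same 10 genes, as points with 95% confidence intervals as bars, coloured by whether the adjusted p was under 0.05. The enzyme genes lie between -0.39 for *Cpt1a* and 0.49 for *Acadvl*, and *Ppargc1a*, at -2.92, has the widest interval (-4.32 to -1.52).

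The start regions of *Cpt1a* and *Acadvl*, the enzyme genes with the largest fall and rise, and the region that *Hadha* and *Hadhb* share are shown here. They are RefSeq sequences of GRCm38.p6 (also called mm10), from 250 bases before to 50 bases after the annotated start, and all 10 genes had one. In the first pair, at chr19:3323051-3323350 on the plus strand and chr11:70015379-70015678 on the minus strand, capitals mark the nuclear receptor half-site AGGTCA or its reverse complement TGACCT.
Cpt1a: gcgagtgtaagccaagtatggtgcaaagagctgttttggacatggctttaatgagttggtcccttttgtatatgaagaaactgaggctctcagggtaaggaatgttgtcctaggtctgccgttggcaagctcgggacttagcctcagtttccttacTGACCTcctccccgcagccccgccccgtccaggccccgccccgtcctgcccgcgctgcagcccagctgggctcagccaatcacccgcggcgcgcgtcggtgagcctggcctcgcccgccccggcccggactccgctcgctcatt
Acadvl: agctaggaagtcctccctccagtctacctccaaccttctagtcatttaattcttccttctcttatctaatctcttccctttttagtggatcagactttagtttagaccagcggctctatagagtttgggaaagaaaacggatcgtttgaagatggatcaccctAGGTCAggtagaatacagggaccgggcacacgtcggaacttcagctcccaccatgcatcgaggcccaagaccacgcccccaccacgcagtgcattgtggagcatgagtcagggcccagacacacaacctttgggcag

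Searched on both strands, AGGTCA was in the windows of *Cpt1a*, *Acadvl*, *Acadm* and *Cpt1c*, which is 4 of 10, against 16.3% of all 32851 promoter windows of that length. Of these 4 genes, 1 fell, 1 rose and the other two did not pass the test. The longer ERR site TCAAGGTCA, which contains AGGTCA, was in 0.423% of all windows, the cAMP response element TGACGTCA in 1.79%, the palindromic SMAD element GTCTAGAC in 0.213% and the E-box CACGTG in 7.15%. None of these 4 was found in a window of the 10 genes. A match is a description of the letters in a window and not evidence of a bound site. For *Cpt1a* and *Ppara* the RefSeq starts, 3323301 and 85735776, lie inside GENCODE M21 spans that begin at 3322334 and 85734983. What these windows hold depends on the annotation.

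*Hadha* and *Hadhb* lie head to head on chromosome 5. Their RefSeq starts, 30154980 on the minus strand and 30155253 on the plus strand, are 273 bases apart, a spacing that 8.0% of minus-strand starts have or fall below. In the GENCODE M21 annotation 85 bases lie between the spans of the genes, so the spacing and the shared region depend on the annotation. In the *Hadhb* window, at chr5:30155003-30155302 on the plus strand, capitals mark the 228 bases that the *Hadha* window also covers on the other strand.
Hadhb: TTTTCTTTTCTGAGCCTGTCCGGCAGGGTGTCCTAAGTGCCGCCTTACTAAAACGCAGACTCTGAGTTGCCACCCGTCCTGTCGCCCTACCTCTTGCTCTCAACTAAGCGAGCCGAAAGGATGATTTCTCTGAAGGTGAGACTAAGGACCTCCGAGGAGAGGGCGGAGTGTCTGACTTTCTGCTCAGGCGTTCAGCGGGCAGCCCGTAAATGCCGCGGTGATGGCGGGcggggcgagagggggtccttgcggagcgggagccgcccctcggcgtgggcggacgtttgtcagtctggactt

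*Cpt1a* encodes the liver isoform of CPT1, the malonyl-CoA-sensitive entry step of long-chain fatty acids. The gene (ENSMUSG00000024900) spans 3322334 to 3385733 on the plus strand of chromosome 19 in the GENCODE M21 annotation of GRCm38, and its principal transcript has 19 exons. It stood at 155.3, 160.1 and 153.1 CPM with vehicle and at 122.6, 126.4 and 109.2 CPM with TGFβ. All 3 TGFβ libraries were below all 3 vehicle libraries. The mean fell from 156 ± 3.56 CPM (SD, n = 3) to 119 ± 9.02 CPM (SD, n = 3), a change of -23.5% and of -0.39 on the log2 scale (SE 0.059, adjusted p = 0.0016). *Cpt1a* held more counts than the other carnitine palmitoyltransferase genes, between 3114 and 4943 per library.

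*Cpt1c* (ENSMUSG00000007783, chromosome 7, 44959372 to 44974851, minus strand, 19 exons) encodes a CPT1 relative of the endoplasmic reticulum best known in neurons, with little acyltransferase activity of its own. Its values of 51.9, 50.7 and 40.7 CPM with vehicle and 57.3, 52.2 and 44.3 CPM with TGFβ overlapped. The log2 fold change was 0.10, with a 95% confidence interval of -0.17 to 0.37 and an adjusted p of 0.522. Both groups spread widely, by a coefficient of variation of 12.9% and 12.8%, against 2.28% and 7.55% for *Cpt1a*.

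*Cpt2* (ENSMUSG00000028607, chromosome 4, 107903981 to 107923610, minus strand, 5 exons) encodes the inner membrane enzyme. It was at 33.1, 32.4 and 31.3 CPM with vehicle and 30.9, 34.3 and 31.8 CPM with TGFβ. The groups overlapped, and the interval of the log2 fold change, -0.12 to 0.13, leaves room only for differences smaller than the fall of *Cpt1a* (adjusted p = 0.982). The third isoform of CPT1, *Cpt1b* of muscle, had 1 count over the vehicle libraries and 8 over the TGFβ libraries and was not tested. Of its 75-base windows 92.1% also occur in other genes, so these few counts are uncertain.

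The ratio of *Cpt1a* to *Cpt2* within a library, which does not depend on how libraries are scaled, was 4.70, 4.93 and 4.89 with vehicle and 3.98, 3.68 and 3.44 with TGFβ. That of *Cpt1a* to *Cpt1c* was 2.99, 3.16 and 3.76 with vehicle and 2.14, 2.42 and 2.47 with TGFβ. In both pairs the groups did not overlap, with differences of -0.39 and -0.49 on the log2 scale. A two-sided exact permutation test gave p = 0.1 for each, the smallest p that 3 against 3 libraries allow, and 0.133 after adjustment over the 4 pairs compared.

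**Figure D3:**
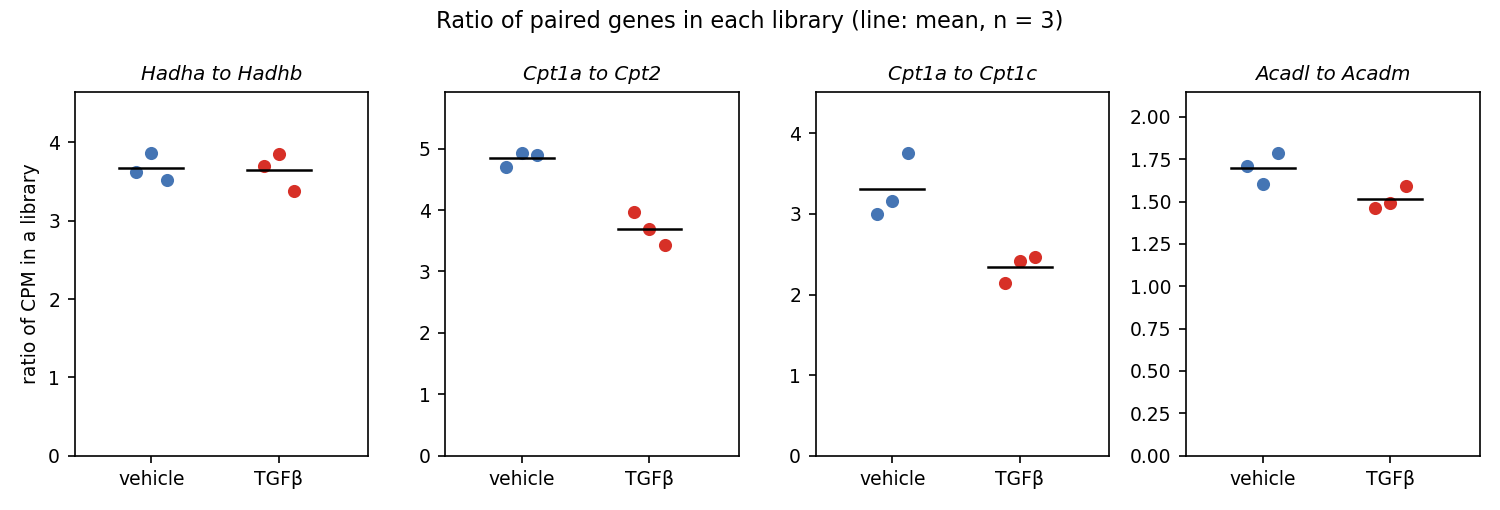
Ratio of the CPM of paired genes (vertical axes, from 0) in each vehicle (blue) and TGFβ library (red), with the group mean as a line. *Hadha* to *Hadhb* overlaps between the groups, from 3.52 to 3.87 with vehicle and 3.38 to 3.85 with TGFβ, and the other 3 ratios are lower in every TGFβ library.

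Among the acyl-CoA dehydrogenases, which open each turn of β-oxidation, the 3 genes took 3 courses. *Acadvl* (ENSMUSG00000018574, chromosome 11, 70010183 to 70015411, minus strand, 20 exons), for very long chains, stood at 72.8, 70.4 and 61.3 CPM with vehicle and 95.4, 99.9 and 92.0 CPM with TGFβ. Every TGFβ library was above every vehicle library. The mean rose from 68.2 ± 6.08 CPM (SD, n = 3) to 95.8 ± 3.93 CPM (SD, n = 3), by 40.5%, or 0.49 on the log2 scale (SE 0.068, adjusted p = 0.0010). *Dvl2*, on the other strand, overlaps 1151 of the 2686 exonic bases of *Acadvl* (42.9%) and held 46.3% as many counts. Whether strand was used in the counting is not given in the sources used here, so reads of the overlap cannot be told apart. *Dvl2* itself fell, by 0.29 on the log2 scale (SE 0.045, adjusted p = 0.0017), opposite to *Acadvl*.

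*Acadl* (ENSMUSG00000026003, chromosome 1, 66830839 to 66863277, minus strand, 11 exons), for long chains, was at 76.1, 71.2 and 76.8 CPM with vehicle and 65.3, 67.5 and 66.4 CPM with TGFβ. The groups did not overlap, but the nearest libraries were only a few CPM apart. The mean fell from 74.7 ± 3.05 CPM (SD, n = 3) to 66.4 ± 1.14 CPM (SD, n = 3), by 0.17 on the log2 scale (SE 0.043, adjusted p = 0.015). Without the TGFβ library of 27851677 counts the change was -0.16 with an adjusted p of 0.053, and without any other 1 library the adjusted p was 0.015 to 0.048.

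*Acadm* (ENSMUSG00000062908, chromosome 3, 153922357 to 153944632, minus strand, 12 exons), for medium chains, was at 44.6, 44.4 and 42.9 CPM with vehicle and 44.6, 45.3 and 41.8 CPM with TGFβ. The groups overlapped, and the interval of the log2 fold change was -0.11 to 0.10 (adjusted p = 0.966). The ratio of *Acadl* to *Acadm* was 1.71, 1.60 and 1.79 with vehicle and 1.46, 1.49 and 1.59 with TGFβ, a difference of -0.17 on the log2 scale with no overlap (exact permutation p = 0.1, 0.133 after adjustment).

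The mitochondrial trifunctional protein carries out the last 3 steps on long chains. Its α subunit, from *Hadha*, has the hydratase and long-chain hydroxyacyl-CoA dehydrogenase activities, and its β subunit, from *Hadhb*, the thiolase. *Hadhb* (ENSMUSG00000059447, 30155248 to 30184593, plus strand, 16 exons) was at 51.8, 48.5 and 47.2 CPM with vehicle and 57.8, 56.9 and 55.1 CPM with TGFβ. All 3 TGFβ libraries were above all 3 vehicle libraries, and the mean rose from 49.2 ± 2.39 CPM (SD, n = 3) to 56.6 ± 1.40 CPM (SD, n = 3), by 0.20 on the log2 scale (SE 0.047, adjusted p = 0.011). Of the 75-base windows of its transcript, 57.2% also occur in other genes, chiefly the processed pseudogene *Gm13910*, which held 14 counts over the 6 libraries. How reads matching both were counted is not given, and the level of *Hadhb* is uncertain for that reason.

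*Hadha* (ENSMUSG00000025745, 30118304 to 30155162, minus strand, 20 exons) was at 187.8, 187.8 and 166.0 CPM with vehicle and 214.0, 219.1 and 186.1 CPM with TGFβ. The TGFβ library of 28641986 counts lay within the vehicle range and the other two lay above it. The log2 fold change of 0.19 was close to that of *Hadhb*, but its SE of 0.076 was larger and the adjusted p was 0.078. Without the TGFβ library of 28641986 counts the change was 0.26 with an adjusted p of 0.018. *Garem2*, on the other strand, shares 75 of the 8730 exonic bases of *Hadha* and rose by 1.01 on the log2 scale (adjusted p = 1.1e-05). The ratio of *Hadha* to *Hadhb* was 3.62, 3.87 and 3.52 with vehicle and 3.70, 3.85 and 3.38 with TGFβ, a difference of -0.011 on the log2 scale (exact permutation p = 0.9, also 0.9 after adjustment). The pair with the shared start region thus had overlapping ratios, and *Hadhb* but not *Hadha* passed the test of its own change.

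*Ppara* (ENSMUSG00000022383, chromosome 15, 85734983 to 85802819, plus strand, 8 exons) encodes the fatty acid-activated nuclear receptor PPARα. It had few counts, 45, 53 and 46 with vehicle and 15, 18 and 24 with TGFβ, or 1.41, 1.79 and 1.54 CPM and 0.55, 0.64 and 0.84 CPM. Every TGFβ library was below every vehicle library. The mean fell from 1.58 ± 0.189 CPM (SD, n = 3) to 0.678 ± 0.150 CPM (SD, n = 3), by 1.21 on the log2 scale (SE 0.218, 95% confidence interval -1.72 to -0.71, adjusted p = 0.0035). The summed counts, 144 against 57, put vehicle over TGFβ at a ratio of 2.40, with a counting interval of 1.76 to 3.33.

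*Ppargc1a* (ENSMUSG00000029167, chromosome 5, 51454250 to 51567726, minus strand, 13 exons) encodes PGC-1α, a coactivator of PPARα and a regulator of mitochondrial biogenesis. Its counts were 16, 13 and 23 with vehicle and 0, 4 and 2 with TGFβ, all 3 TGFβ libraries being below the vehicle libraries. The summed counts of 52 and 6 gave a ratio of vehicle over TGFβ of 8.25 with a counting interval of 3.54 to 23.5, and the fitted log2 fold change was -2.92 (SE 0.603, adjusted p = 0.0065). The gene passed the filter through the vehicle group alone, since the CPM needed, 0.344, was met in 3 vehicle libraries and in 0 TGFβ libraries. A gene that enters this way has to differ between the groups, so its call carries less weight than the others. The adjusted p of *Ppargc1a* was at most 0.021 in the alternative fits that tested it, the one with no filter among them. *Ppargc1a* is abundant in cardiomyocytes. Of 8 cardiomyocyte markers 5 were not tested, and 3 did not pass the test, *Tnnt2* (-0.46 on the log2 scale), *Tnni3* (-0.24) and *Nppa* (0.15). Among the untested, the means of *Myh6* and *Ryr2* were 0.254 and 0.208 CPM with vehicle and 0.096 and 0.130 CPM with TGFβ, with overlapping groups. The vehicle libraries held 4, 3 and 16 counts of *Myh6*, so its mean rests mostly on 1 library. The part of such cells in the fall of *Ppargc1a* was not tested.

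**Figure D4:**
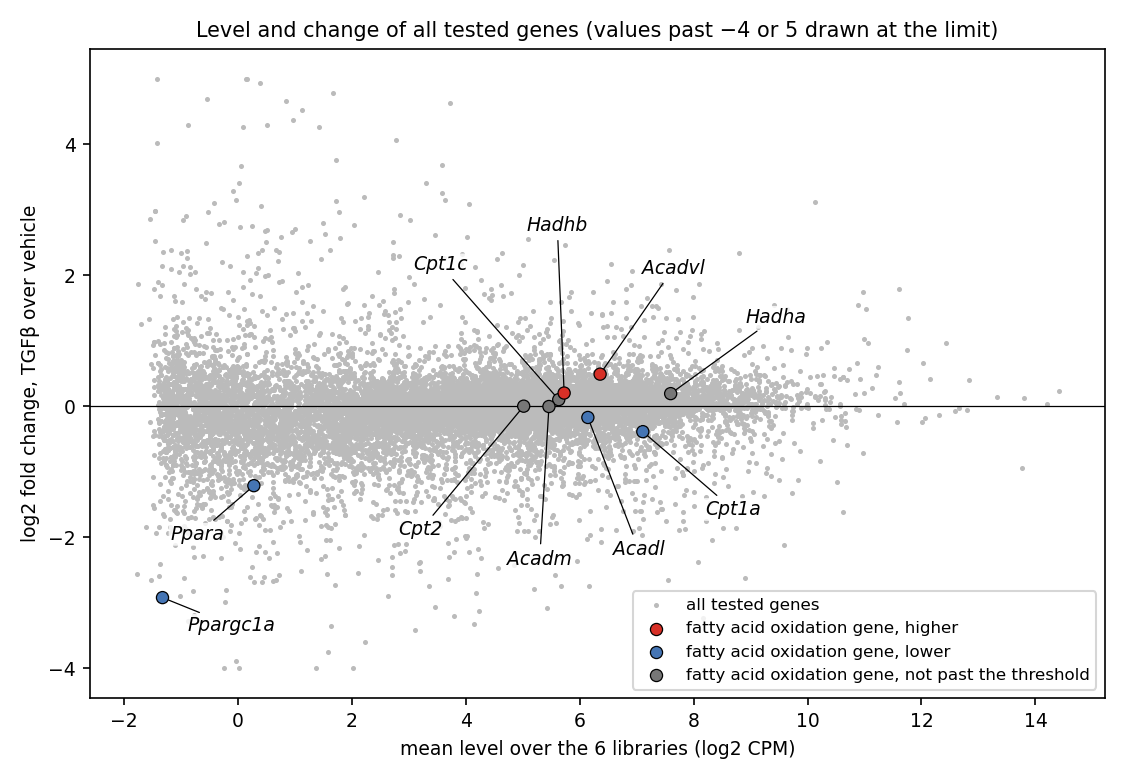
Mean level over the 6 libraries (horizontal axis, log2 CPM) and log2 fold change of TGFβ over vehicle (vertical axis) of all 14334 tested genes in grey, with the 10 fatty acid oxidation genes coloured by their call. The 8 enzyme genes lie between -0.39 and 0.49, and *Ppara* and *Ppargc1a* lie lower and among the genes of few counts.

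Set per length, so that genes can be compared, the level with vehicle ran from *Hadha* at 44.9 ± 3.13 CPM per kb of principal transcript (SD, n = 3) through *Acadl* (39.0 ± 1.59), *Cpt1a* (36.2 ± 0.825), *Acadvl* (31.4 ± 2.80), *Hadhb* (24.0 ± 1.17), *Acadm* (21.5 ± 0.441) and *Cpt1c* (17.1 ± 2.20) to *Cpt2* (13.6 ± 0.373). *Ppara* (0.463 ± 0.0555) and *Ppargc1a* (0.0883 ± 0.0273) came last, far below the enzymes. No neighbours in this order had overlapping vehicle libraries, but the order depends on the length chosen. All exons of *Hadha*, *Hadhb* and *Cpt1a* cover 8.73, 6.6 and 7.64 kb, against 4.02, 2.05 and 4.32 kb in the principal transcript. Which exons were counted is not given. With TGFβ, *Acadvl* moved from the fourth place to the second, at 44.2 ± 1.81 CPM per kb, and *Acadl* and *Cpt1a* moved down by a place each, to 34.7 ± 0.598 and 27.7 ± 2.09. In that group the libraries of *Cpt1a* and *Hadhb* (27.6 ± 0.684) overlapped, as did those of *Acadm* and *Cpt1c*. The level of *Hadhb* carries the uncertainty of its pseudogene.

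The other genes of the pathway were taken from 9 lists of 105 genes, of which 97 were tested. Of these, 55 changed (56.7%, against 40.7% of all tested genes), 15 upward and 40 downward, with a median log2 fold change of -0.15 against -0.0013 over all tested genes. The 55 include *Acox2*, which passed the filter on low counts through the TGFβ group alone and so had to differ. The share of all tested genes was not matched to the listed genes for level. The counts given for each list below stand beside 20.5% of all tested genes that rose and 20.1% that fell. Most genes named are among the largest changes past the threshold in their list. *Etfb*, *Slc25a20*, *Acaca*, *Prkaa1* and *Mlycd* were added for their place in the pathway after their values were seen.

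**Figure D5:**
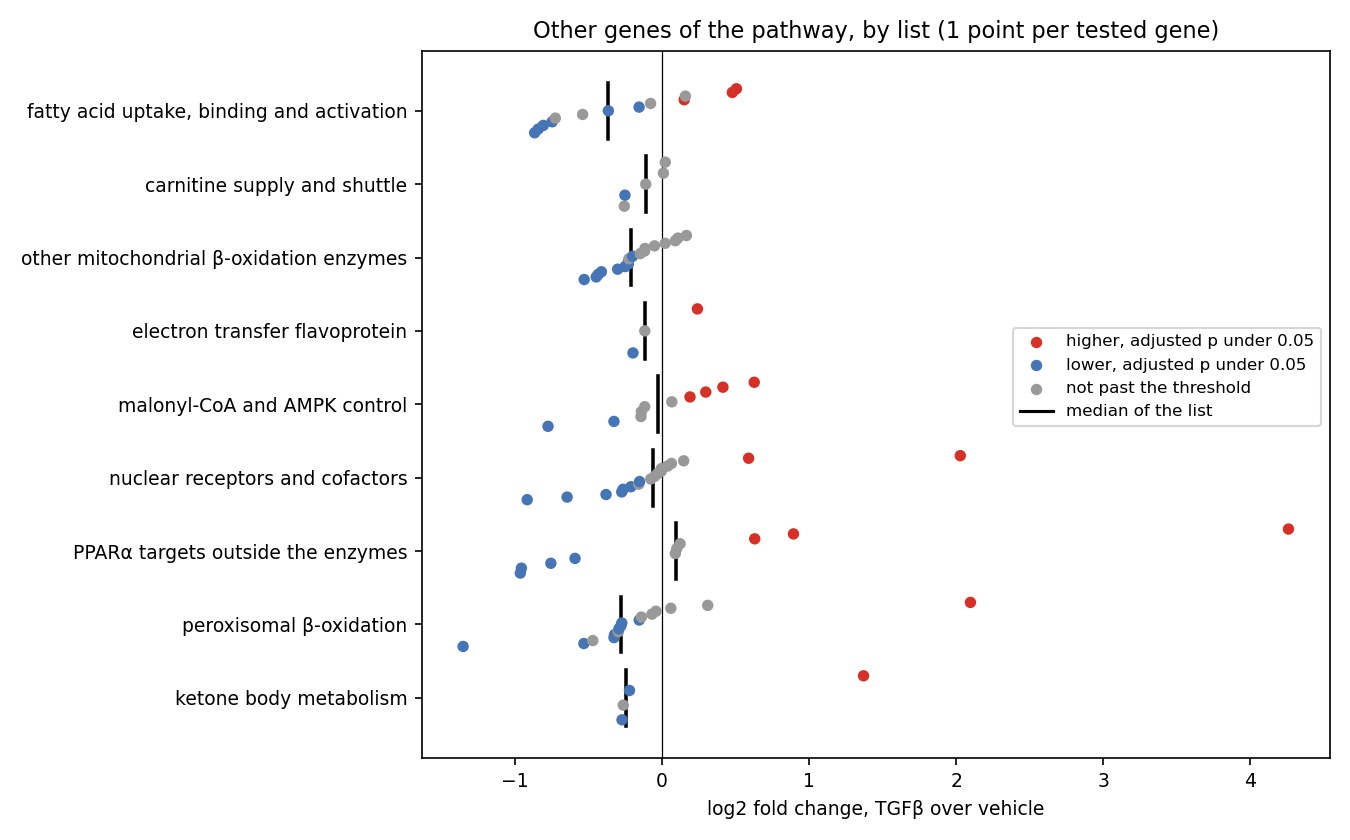
Log2 fold change of TGFβ over vehicle (horizontal axis) of the 97 tested genes of the 9 pathway lists, 1 point per gene, coloured by call, with the median of each list as a black bar. The medians run from -0.36 for uptake, binding and activation to 0.10 for PPARα targets, and the point farthest right is *Fgf21* at 4.26.

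The 18 further genes listed with mitochondrial β-oxidation had 9 members that fell and 9 that did not pass the test, with a median of -0.21. Of all tested genes 20.1% fell. The list also holds enzymes of branched-chain amino acid and propionyl-CoA breakdown, so these counts are not of β-oxidation alone. *Acaa2*, the mitochondrial thiolase for medium chains, fell from 40.9 ± 4.64 to 28.4 ± 2.91 CPM (SD, n = 3 each; log2 fold change -0.53, adjusted p = 0.0048). *Pcca*, a subunit of the propionyl-CoA carboxylase that handles the last fragment of odd chains, fell from 23.0 ± 1.09 to 16.9 ± 0.417 CPM (-0.45, adjusted p = 0.00073). The electron transfer flavoprotein genes, which take the electrons of the acyl-CoA dehydrogenases to ubiquinone, differed in direction: *Etfa* fell by 0.20 (adjusted p = 0.0044), *Etfdh* rose by 0.24 (adjusted p = 0.0020), and *Etfb*, with 66.3% shared windows, did not pass the test.

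Upstream of CPT1, uptake, binding and activation of fatty acids had 3 genes that rose and 6 that fell of 13, with a median of -0.36. The acyl-CoA synthetases *Acsl4* (from 92.5 ± 4.07 to 131 ± 6.30 CPM, log2 fold change 0.51, adjusted p = 0.00024) and *Acsl3* (46.7 ± 5.90 to 65.1 ± 4.0 CPM, 0.48, adjusted p = 0.0047) rose. The transporter *Slc27a6* (4.20 ± 0.577 to 2.30 ± 0.315 CPM, -0.86, adjusted p = 0.0042) and the binding protein *Fabp4* (42.1 ± 11.1 to 23.5 ± 7.04 CPM, -0.84, adjusted p = 0.024) fell. *Fabp4* is also a gene of endothelial cells and adipocytes, and its call was lost without any 1 of 3 libraries (the vehicle library of 29331999 counts, adjusted p = 0.059, or the TGFβ libraries of 27851677 and 28894151 counts, 0.084 and 0.081). The 6 endothelial markers ran from -0.38 for *Cdh5* to 0.25 for *Tek* on the log2 scale, with adjusted p-values of 0.144 to 0.972 and overlapping groups, the 3 adipocyte markers summed to at most 0.134 CPM in any library, and the part of endothelial cells in the change of *Fabp4* was not tested. Of the 5 genes tested for carnitine supply and shuttling, *Aldh9a1* of carnitine synthesis fell (-0.25, adjusted p = 0.017, and 0.051 without the vehicle library of 29296570 counts), while the carrier *Slc25a20* was at 36.2 and 36.5 CPM (0.01, adjusted p = 0.870).

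Malonyl-CoA, the product of acetyl-CoA carboxylase, inhibits CPT1, and AMPK phosphorylates the carboxylase. Of 10 genes in this list 4 rose and 2 fell. *Acacb*, the carboxylase placed at mitochondria, fell from 9.04 ± 0.635 to 5.29 ± 0.506 CPM (SD, n = 3 each; -0.77, adjusted p = 0.00083). *Acaca*, the cytosolic carboxylase, rose from 81.4 ± 4.34 to 100.2 ± 7.15 CPM (0.30, adjusted p = 0.0075), with 47.4% of its windows shared with other genes. The AMPK subunits were split. *Prkaa2*, at means of 3.88 CPM with vehicle and 6.00 CPM with TGFβ, was higher (0.63, adjusted p = 0.011), as was *Prkag2* (0.42, adjusted p = 0.0015). *Prkaa1*, which had a higher level than *Prkaa2*, rose from 56.5 to 64.5 CPM (0.19, adjusted p = 0.0060). *Prkab1* was lower (-0.33, adjusted p = 0.0036), and the other subunits listed did not pass the test. *Mlycd*, which removes malonyl-CoA, did not pass the test (-0.14, adjusted p = 0.195).

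Among nuclear receptors and cofactors other than *Ppara* and *Ppargc1a*, 2 of 18 tested genes rose and 7 fell. *Esrrg*, an orphan receptor that acts with PGC-1α, rose from 0.469 ± 0.0561 to 1.93 ± 0.161 CPM (SD, n = 3 each; 2.03, adjusted p = 0.00016), a low level in both groups. *Ppargc1b*, the nearest relative of *Ppargc1a*, met the CPM needed for the filter in 3 vehicle and 2 TGFβ libraries. It had 24, 16 and 22 counts with vehicle and 7, 10 and 13 with TGFβ (-0.91, adjusted p = 0.037). This call was lost in DESeq2 (adjusted p = 0.162) and with no filter (0.061). Leaving out either of the vehicle libraries of 31072338 and 29331999 counts lost it too, as did either of the TGFβ libraries of 27851677 and 28894151 counts (0.096 to 0.119). *Pparg* fell (-0.64, adjusted p = 0.019), and did not pass the test on leaving out the vehicle library of 29296570 counts (-0.60, adjusted p = 0.065) or the TGFβ library of 27851677 counts (-0.50, adjusted p = 0.051).

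The PPARα targets outside the enzymes did not share a direction: 3 rose and 4 fell of 10 tested. *Fgf21*, a secreted metabolic hormone, rose from 0.266 ± 0.126 to 5.11 ± 1.75 CPM (SD, n = 3 each; 4.26, adjusted p = 0.00013), with 4, 9 and 11 counts against 118, 109 and 203. It passed the filter mostly through the TGFβ group, since 1 vehicle library and 3 TGFβ libraries met the CPM needed. Its adjusted p was at most 0.0010 in every alternative fit, the one with no filter among them. *Ucp2*, an inner membrane carrier, rose from 14.3 ± 1.03 to 26.6 ± 2.67 CPM (0.89, adjusted p = 0.00022). *Angptl4*, an inhibitor of lipoprotein lipase, fell from 44.6 ± 7.37 to 22.9 ± 3.82 CPM (-0.96, adjusted p = 0.0015). *Acot1* fell as well (-0.95, adjusted p = 0.018), but shares 26.4% of its windows with other genes, chiefly *Acot2*, and did not pass on leaving out the vehicle library of 31072338 counts (0.057) or 29296570 counts (0.058) or the TGFβ library of 28641986 counts (0.051).

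Peroxisomes shorten very long chains before mitochondria take them over. Of 16 genes listed with peroxisomal β-oxidation, which do not all act on very long chains, 8 fell and 1 rose. *Abcd2*, a transporter of very long chains, fell from 4.15 ± 0.830 to 1.62 ± 0.0567 CPM (SD, n = 3 each; -1.35, adjusted p = 0.00090) and *Ech1* from 45.4 ± 3.80 to 31.4 ± 2.72 CPM (-0.53, adjusted p = 0.0017). *Acox2* rose on few counts, 8, 2 and 3 against 23, 19 and 10 (2.10, adjusted p = 0.014). It passed the filter through the TGFβ group alone, and its call was lost without the TGFβ library of 27851677 counts (adjusted p = 0.053). In the 4 ketone body genes, *Bdh1*, which interconverts the ketone bodies, rose from 2.70 ± 0.892 to 7.0 ± 0.569 CPM (1.37, adjusted p = 0.0022), and *Oxct1*, which activates them for use, fell from 283 ± 4.18 to 235 ± 12.1 CPM (-0.27, adjusted p = 0.0034).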

How the data were processed

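Stranded poly(A) libraries of 3 vehicle and 3 TGFβ samples were sequenced single-end, and reads were aligned to mm10 by the authors, who used DESeq2. The aligner, the counter, its annotation and its use of strand are not given in the sources used here. The authors deposited whole-number read counts per gene, without normalization. The columns of their own comparison (a mean, fold change and p-values) were not used. Count columns name the group but not the replicate, so libraries are named by total count. Within each group every pair of libraries differed by more than sampling noise (chi-square per gene of 7.95 to 27.1). The methods speak of biological replicates, but their source animals are not given, so p-values measure the spread between these samples.

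TMM factors, the filterByExpr filter and the quasi-likelihood test of edgeR 4.0.16 (R 4.3.3) were applied over 14334 genes, of which 5828 changed (2944 upward, 2884 downward, and 2206 and 3471 with library totals alone as scaling). Within-library ratios were compared with exact permutation tests (scipy 1.17.1). Coordinates are from GENCODE M21, and lengths and exons are those of the APPRIS principal transcript. Shared reads were gauged by 75-base windows that also occur in other genes. The steps were tested on simulated data. Counting intervals are 95% and cover counting error only.

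The 10 genes, the lists and the tests were chosen with earlier results of these data known. Named are all 10 genes and, in each list, the 2 largest rises and 2 largest falls past the threshold. Some results for genes taken in by this rule or the lists are not reported here. Alternatives were RLE, upper quartile or no composition factors, DESeq2 1.42.0, limma-voom 3.58.1, no filter, 1 CPM in 3 libraries, each library left out, an adjusted p of 0.01 and, for the ratios, raw counts with 0.5 added.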

Additional observations from a re-analysis of the deposited data

How the results depend on the processing

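No paired analysis was possible because the count columns carry no replicate number. Any difference between cultures that the groups share therefore counts as spread in the unpaired tests. The count of changed genes among the 10 stayed at 6 under most settings, with 5 at 1 CPM in 3 libraries, where *Ppargc1a* was not tested, and 4 at an adjusted p of 0.01. An adjusted p of 0.01 left 3595 changed genes of all tested and 34 of the 97 pathway genes. Leaving out 1 library at a time gave 4489 to 5481 changed genes in all, 5 to 7 of the 10 and 42 to 51 of the pathway genes. *Acadl* was lost without the TGFβ library of 27851677 counts and *Hadha* gained without that of 28641986 counts. The log2 difference in the ratio of *Hadha* to *Hadhb* ran from -0.053 to 0.042 with 1 library left out, and was above 0 without the vehicle library of 29296570 counts (0.027) or the TGFβ library of 28641986 counts (0.042). The counts of *Ppara* and *Ppargc1a* are low, which limits the precision of their fold changes.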
